A study of Ovis aries with 15 samples.

Results

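The genes described here are 46 enzymes and enzyme subunits that break down amino acids, measured in fetal sheep liver. They were chosen by gene name from 31411 genes in the count table, and cover the breakdown of tyrosine (4 genes), tryptophan (4), the sulphur amino acids (7), serine and glycine (8), the branched-chain amino acids (10), histidine (4), the general aminotransferases (4), and proline, ornithine, lysine and glutamine (5). All 46 were found, and all 46 were among the 16977 genes that passed the filter on low counts. Liver from sheep fetuses was collected at gestational day 100 (GD100, 4 libraries), day 124 (GD124, 5 libraries) and day 144 (GD144, 6 libraries), and poly(A)-selected RNA was sequenced. No breed, sex, treatment or genotype is given in the labels, and nothing there says whether each library came from its own fetus, so the p-values measure the spread between these libraries. The submitters' sample codes share their letters within a stage and differ between stages, so a cohort and a stage cannot be told apart.

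Amino acids that are not used to make protein lose their nitrogen, mostly by transamination to glutamate, and their carbon skeletons are turned into intermediates of glucose synthesis, ketone bodies or the citric acid cycle. In adults the liver is the main site of these pathways for most amino acids, while the first transamination of the branched-chain amino acids takes place mainly in muscle and other tissues. Before birth the placenta supplies amino acids continuously, and part of them is oxidised by the fetus. Several of these genes, TAT and SDS among them, are textbook targets of glucocorticoids and glucagon, studied mostly in rodents.

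Libraries held 24215611 to 38247314 counts, and 3 counts in a library correspond to 0.0797 to 0.128 CPM (counts scaled to a common library total with TMM size factors). Summed CPM of 10 hepatocyte markers was 49859 to 141426 in GD100 libraries, 188701 to 218254 in GD124 libraries and 145500 to 186283 in GD144 libraries, so the labelled tissue carried its markers in every library. Red-cell precursor markers (9 of 10 in the table) summed to between 3613 and 8931 CPM in GD100 libraries, 1412 and 2837 CPM in GD124 libraries, and 72.3 and 654 CPM in GD144 libraries. The sums of 5 proliferation markers were 743 to 1767, 287 to 667 and 26 to 180.0 CPM in the same order of stages. Of 4 kidney markers, 3 were in the table. UMOD had at most 3 counts in every library. LRP2 was present, with means of 11.5, 23.7 and 16.8 CPM at GD100, GD124 and GD144. It was called higher at GD124 against GD100 (edgeR adjusted p = 0.0243). The share of genes with a fractional count was 10.6% to 10.8% in GD100 replicates 2, 3 and 4 and 5.09% to 6.2% in the other 12 libraries, which sets those 3 libraries apart. The table was therefore refitted with replicate 1 standing alone for GD100, which is then assumed to vary like the other stages. That refit is not given below for every gene and comparison. IDO2, AFMID, GPT2, SRR, PPM1K and BCKDK are among the genes given without it.

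The breakdown genes were higher late in gestation, with few exceptions. A gene was called changed when its edgeR quasi-likelihood p, adjusted over all 16977 genes tested, was under 0.05. At GD144 against GD100, 37 of the 46 genes (80.4%) rose, 1 (GPT) fell and 8 were not called, where 55.0% of all genes tested were called, 27.1% higher and 27.9% lower. A test of any difference among the 3 stages called 38 of the 46 (82.6%), against 56.3% of all genes tested. The median log2 fold change of the 46 genes at GD144 against GD100 was 1.25, against 0.03 over all genes tested. Of the genes that rose, 33 did so by at least 2-fold, 12 by at least 4-fold and 4 by at least 8-fold.

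Both intervals contributed. At GD124 against GD100, 20 of the 46 genes (43.5%) rose and 1 fell, where 34.0% of all genes tested were called, 16.6% higher and 17.4% lower, and the median log2 fold change was 0.67 against 0.02 over all genes. At GD144 against GD124, 24 (52.2%) rose and 1 fell, where 27.5% of all genes tested were called, 12.1% higher and 15.4% lower, and the median was 0.59 against -0.01. In 16 genes every GD124 library lay above every GD100 library (34.8%, against 11.6% of all genes tested), and in 15 every GD144 library lay above every GD124 library (32.6%, against 7.81%). For 31 genes all GD144 libraries lay above all GD100 libraries (67.4%, against 19.2%).

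The genes divided by when they were called. FAH, GNMT, AHCY, CBS, CTH, SDS, SDSL, SARDH, BCAT2, BCKDHB, GOT2, AGXT and PRODH (13 genes) were higher at GD144 than at both other stages, with no call between GD124 and GD100. HGD, KYNU, MAT1A, CDO1, SHMT1, GLDC, DMGDH, PCCA, PCCB, GOT1 and GLS2 (11) rose in both intervals. TAT, KMO, BHMT, BCKDHA, DBT, MCCC2, HIBCH, AMDHD1 and AASS (9) rose at GD124 and were not called between GD144 and GD124. HPD, HAAO, MCCC1 and HAL (4) were called at GD144 against GD100 alone, and TDO2, AMT, GCSH, IVD, UROC1, FTCD, ALDH4A1 and OAT (8) in no pair of stages. These groups were made from the calls and are a description: the difference between the 2 intervals was itself called for 3 genes (6.52%, 2 with the larger rise late and 1 early), close to the 5.90% of all genes tested (2.15% and 3.75%).

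**Figure D1:**
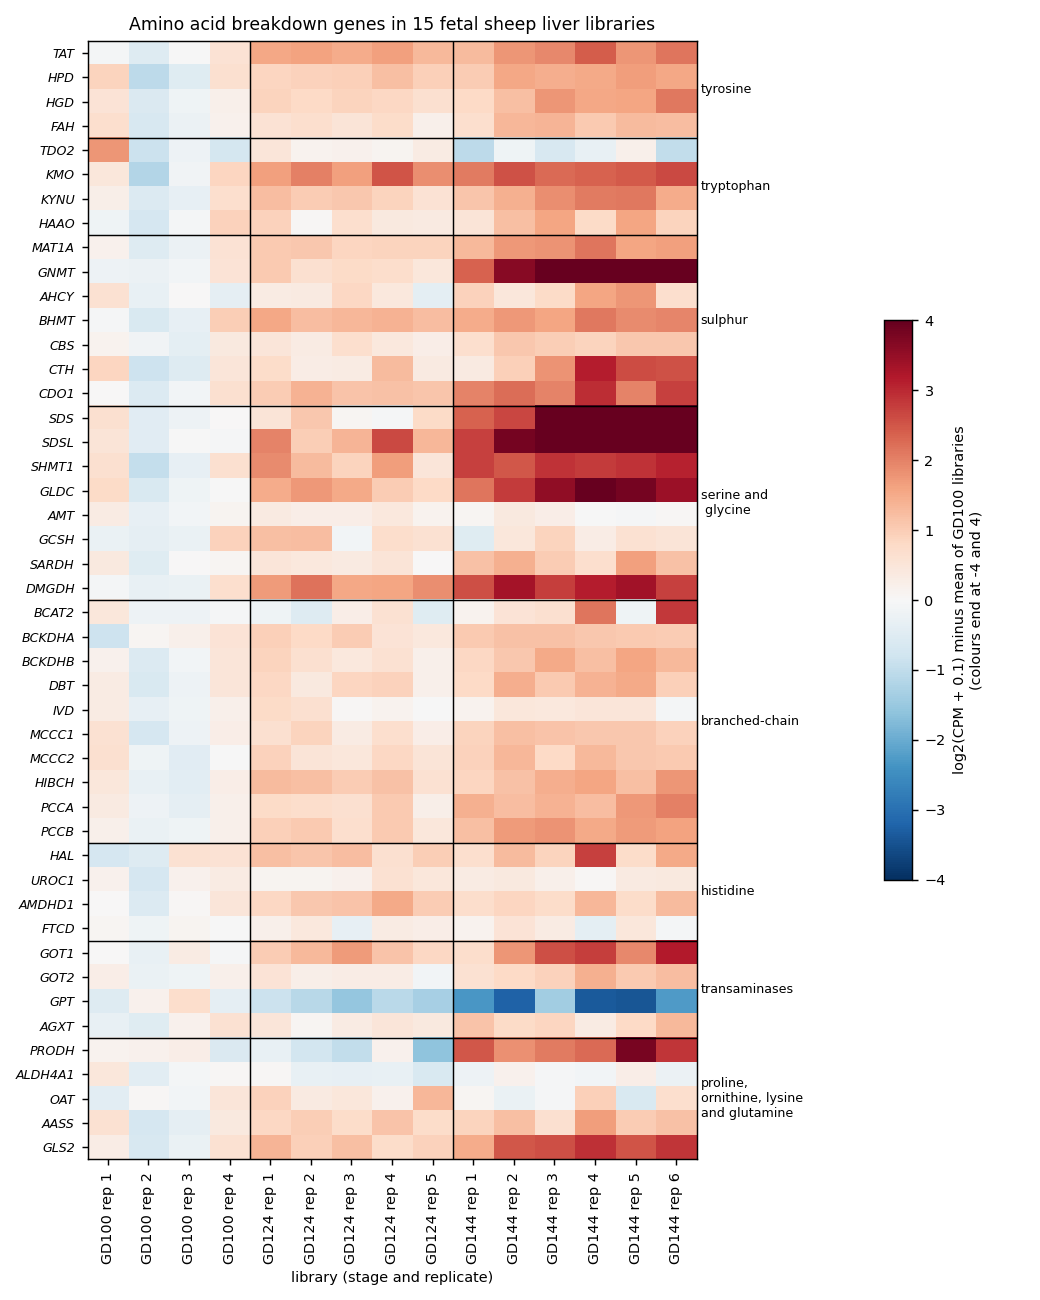
Levels of the 46 genes (rows, grouped by amino acid) in each of the 15 libraries (columns), as log2(CPM + 0.1) minus the mean of the 4 GD100 libraries, with colours ending at -4 and 4. GPT turns blue across the stages, while SDS, SDSL, GNMT and GLDC reach the darkest red in GD144 libraries, with GD144 replicate 1 paler than the others of its stage.

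**Figure D2:**
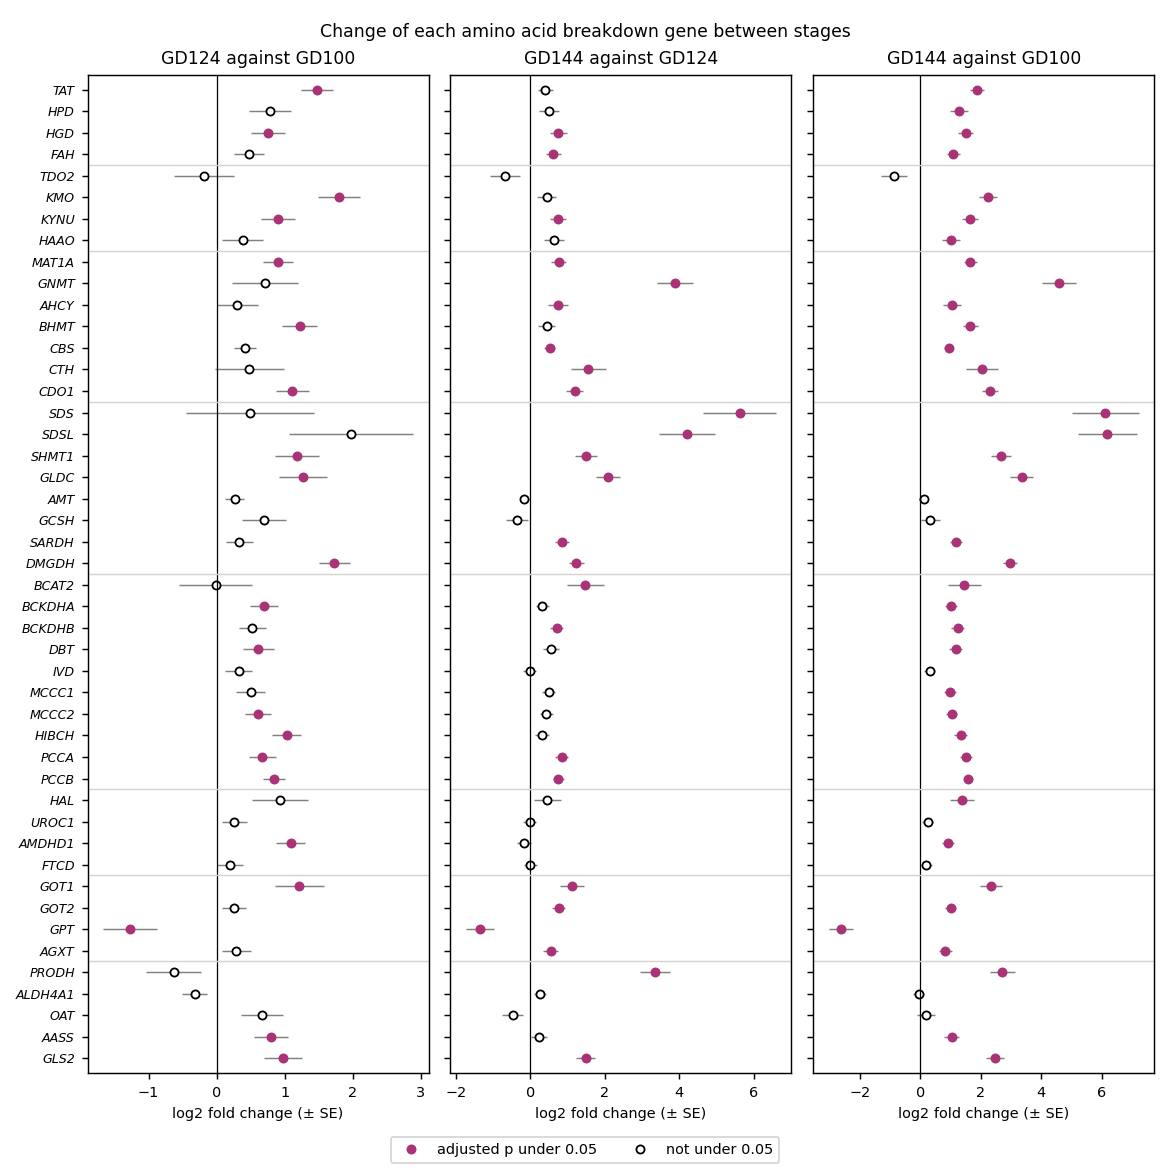
Log2 fold change of each of the 46 genes between stages, with bars of 1 SE and filled points for an edgeR adjusted p under 0.05; the 3 panels have different horizontal scales. At GD144 against GD100, 37 filled points lie to the right of 0 and 1, GPT, to the left.

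Fewer genes were called in the early interval when GD100 rested on 1 library. In the refit with replicate 1 alone for GD100, 7 genes rose at GD124 against GD100 (TAT, KMO, BHMT, CDO1, DMGDH, BCKDHA and AMDHD1) and 2 fell (TDO2 and ALDH4A1), with 8.48% higher and 8.57% lower of the 18580 genes tested there (3167 calls over all genes, where the full fit made 5774). In the same refit 26 rose and 2 fell at GD144 against GD100 (17.9% higher and 20.8% lower over all genes), and 30 rose and 2 fell at GD144 against GD124 (13.5% higher and 15.1% lower). Leaving out 1 library at a time, the number called lay between 14 (without GD100 replicate 3) and 26 (without GD100 replicate 1) at GD124 against GD100. The number called at GD144 against GD100 stayed between 37 and 39.

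Markers of hepatocytes moved with the early interval: 9 of 10 rose at GD124 against GD100, while 2 rose and 1 fell at GD144 against GD124. The 9 red-cell markers fell at GD144 against GD124 (9 of 9), and 2 of 9 fell at GD124 against GD100. Markers of macrophages (6 of 7), endothelium (5 of 6) and stellate cells and fibroblasts (4 of 6) rose at GD144 against GD100, while 3 bile duct markers summed to 12.3 to 35.7 CPM at GD100, 18.6 to 36.3 CPM at GD124 and 19.5 to 31.6 CPM at GD144. In whole tissue, fewer cells of a type and less RNA per cell cannot be told apart. As a description chosen after the values were seen, each gene was also set against the geometric mean of the 10 hepatocyte markers in the same library. On that scale the median log2 difference of the 46 genes was -0.70 at GD124 against GD100 (-1.34 over all genes), 0.54 at GD144 against GD124 (-0.05 over all genes), and -0.17 at GD144 against GD100 (-1.36 over all genes). In 18 genes every GD144 library then lay above every GD124 library (39.1%, against 7.05% of all genes). Between GD144 and GD100, KMO, GNMT, CDO1, SDS, SDSL, SHMT1, GLDC and DMGDH did so (17.4%, against 1.72%), while AMT, GCSH, IVD, UROC1, GPT, ALDH4A1 and OAT lay below in every library (15.2%, against 52.0%). At GD124 against GD100 none of the 46 lay above in every library and 14 lay below (30.4%, against 57.0%). The part of cell composition in the rises was not tested.

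Tyrosine is broken down by TAT, HPD, HGD and FAH in turn, and all 4 were higher at GD144 than at GD100 (27.1% of all genes tested were). TAT, the aminotransferase that opens the pathway, had 107, 78.5, 112 and 169 CPM at GD100, 328, 343, 314, 354 and 275 CPM at GD124, and between 269 and 602 CPM (median 403) at GD144. Every library of the later stages lay above every GD100 library, and those of GD144 overlapped those of GD124. TAT rose at GD124 against GD100 (log2 fold change 1.47 ± 0.23, edgeR adjusted p = 0.000393) and at GD144 against GD100 (log2 fold change 1.87 ± 0.23, edgeR adjusted p = 5.40e-06), with no call at GD144 against GD124 (log2 fold change 0.40 ± 0.20, edgeR adjusted p = 0.162). HGD, which opens the ring of homogentisate, had 208, 96.1, 128 and 166 CPM at GD100, 264, 249, 266, 257 and 226 CPM at GD124, and between 247 and 625 CPM (median 426) at GD144. GD144 replicate 1 alone lay within the GD124 range, and all GD100 libraries lay below both later stages. HGD rose by log2 0.75 ± 0.24 at GD124 against GD100 (edgeR adjusted p = 0.0258) and by 0.75 ± 0.22 at GD144 against GD124 (adjusted p = 0.0178), for 1.51 ± 0.24 in all (adjusted p = 7.30e-05). Without GD100 replicate 2 or 3 its early rise was not called (adjusted p = 0.0893 and 0.082).

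HPD, the hydroxyphenylpyruvate dioxygenase between them, had 1192, 313, 457 and 989.6 CPM at GD100, 1174, 1223, 1235, 1479.5 and 1243 CPM at GD124, and between 1309 and 2034 CPM (median 1862) at GD144. At GD100, replicates 1 and 4 lay near the GD124 level and replicates 2 and 3 well under it, so GD100 and GD124 overlapped. HPD rose at GD144 against GD100 (log2 fold change 1.28 ± 0.30, edgeR adjusted p = 0.00173), and neither interval was called (edgeR adjusted p = 0.0547 at GD124 against GD100 and 0.195 at GD144 against GD124). Leaving out GD100 replicate 1 or 4 brought the early interval under the threshold (edgeR adjusted p = 0.00947 and 0.0308). FAH, which makes the final cut to fumarate and acetoacetate, averaged 78.5 ± 30.9, 109 ± 14.5 and 167 ± 27.1 CPM at GD100, GD124 and GD144 (SD, n = 4, 5 and 6). FAH rose at GD144 against GD100 (log2 fold change 1.09 ± 0.22, edgeR adjusted p = 0.000471) and at GD144 against GD124 (log2 fold change 0.62 ± 0.20, edgeR adjusted p = 0.0296), the second call being lost when any of GD124 replicates 1, 3 and 5 or GD144 replicates 2, 3, 5 and 6 was left out (adjusted p 0.0508 to 0.0816). Without GD100 replicate 1, FAH was also called higher at GD124 against GD100 (edgeR adjusted p = 0.0097). TAT and HGD, but not HPD and FAH, were still called at GD144 against GD100 with replicate 1 alone for GD100.

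In the kynurenine pathway of tryptophan, 3 of 4 genes rose at GD144 against GD100 (27.1% of all genes tested did), and TDO2 was not called. IDO2, another dioxygenase that opens the pathway, was not among the 46 genes and was looked at after its values were seen. It averaged 58.6 ± 44.5, 203 ± 29 and 214 ± 37.2 CPM at GD100, GD124 and GD144 (SD, n = 4, 5 and 6). IDO2 rose at GD144 against GD100 (log2 fold change 1.87 ± 0.33, edgeR adjusted p = 0.000185). Of other pathway genes outside the 46, ACMSD, KYAT3 and QPRT also rose at GD144 against GD100. AFMID fell there (log2 fold change -0.89 ± 0.24, edgeR adjusted p = 0.00429), from a mean of 52.4 CPM at GD100 to 28.2 CPM at GD144, with overlapping libraries. TDO2, the dioxygenase that opens the indole ring, had 1743, 282, 447 and 312 CPM at GD100, 718, 569.9, 582, 555 and 636 CPM at GD124, and between 246 and 590.2 CPM (median 374) at GD144. GD100 replicate 1 stood far above every other library, while the other 3 GD100 libraries lay below all of GD124 and within the range of GD144. TDO2 was not called in any pair of stages (log2 fold change -0.86 ± 0.42, edgeR adjusted p = 0.0952 at GD144 against GD100). Without GD100 replicate 1 its difference at GD124 against GD100 was log2 0.82 (edgeR adjusted p = 0.0273), where the full fit gave -0.19 (edgeR adjusted p = 0.778), and GD144 was then lower than GD124 (log2 -0.68, edgeR adjusted p = 0.0265). At GD144 against GD100 its difference was 0.15 without GD100 replicate 1 (edgeR adjusted p = 0.651). TDO2 was called lower there without GD100 replicate 2 or 4 (log2 -1.11 and -1.09, edgeR adjusted p = 0.0357 and 0.041) and with replicate 1 alone for GD100 (log2 -2.18, edgeR adjusted p = 0.000166). The direction of TDO2 against GD100 rests on that 1 library.

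KMO, which hydroxylates kynurenine, had 72.3, 23.5, 48.1 and 94.8 CPM at GD100, 165, 212, 165, 302 and 193 CPM at GD124, and between 225 and 331 CPM (median 281) at GD144. No GD124 or GD144 library came down to the GD100 range, and GD144 lay within or just above the range of GD124. KMO rose at GD124 against GD100 (log2 fold change 1.80 ± 0.31, edgeR adjusted p = 0.000613) and at GD144 against GD100 (log2 fold change 2.24 ± 0.31, edgeR adjusted p = 1.47e-05). KYNU, kynureninase, had 45.1, 26.1, 30.2 and 60.9 CPM at GD100, 90.4, 77.5, 81.6, 71.9 and 57.3 CPM at GD124, and between 82.5 and 166 CPM (median 123) at GD144. Levels climbed stage by stage, with GD124 replicate 5 just inside the GD100 range. KYNU rose in both intervals (log2 fold change 0.90 ± 0.25, edgeR adjusted p = 0.0123 at GD124 against GD100, and log2 fold change 0.74 ± 0.23, edgeR adjusted p = 0.0217 at GD144 against GD124). Without GD100 replicate 3 the early rise was at an edgeR adjusted p of 0.0504, and without GD124 replicate 5 or GD144 replicate 5 the late one was at 0.0628 or 0.0512. HAAO, the dioxygenase of hydroxyanthranilate, had 123, 85.4, 129 and 263 CPM at GD100, 259.7, 143, 217, 181 and 177 CPM at GD124, and between 195 and 411 CPM (median 285) at GD144. GD100 replicate 4 lay at the level of the highest GD124 library, and all 3 stages overlapped. HAAO rose at GD144 against GD100 (log2 fold change 1.01 ± 0.29, edgeR adjusted p = 0.00805), and without GD100 replicate 4 both intervals were called too (edgeR adjusted p = 0.0317 and 0.0304). KMO, KYNU and HAAO were still called at GD144 against GD100 with replicate 1 alone for GD100.

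Methionine is activated by MAT1A, spent as a methyl donor by GNMT and others, and its homocysteine is either remethylated by BHMT or sent through CBS and CTH to cysteine, which CDO1 oxidises. All 7 genes of this group were higher at GD144 than at GD100, 6 of them also at GD144 against GD124 and 3 at GD124 against GD100. Of all genes tested, 27.1%, 12.1% and 16.6% were higher in the same comparisons. MAT1A, the liver form of methionine adenosyltransferase, had 448, 276, 337 and 584 CPM at GD100, 824, 834, 712, 738 and 733 CPM at GD124, and between 976 and 1735 CPM (median 1272) at GD144. The 3 stages did not overlap. MAT1A rose by log2 0.90 ± 0.21 and 0.76 ± 0.19 in the 2 intervals (edgeR adjusted p = 0.00469 and 0.00761). Its early change was smaller with replicate 1 alone for GD100, log2 0.78 in place of 0.90.

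GNMT, the glycine methyltransferase that uses up surplus methyl groups, had 4.9, 4.72, 5.21 and 8.22 CPM at GD100, 11.8, 8.79, 9.67, 9.2 and 7.68 CPM at GD124, and between 29.3 and 317 CPM (median 119) at GD144. GD124 replicate 5 lay under the highest GD100 library and the other GD124 libraries just above it, while every GD144 library lay above both stages, replicate 1 lowest and replicate 4 highest. GNMT rose at GD144 against GD124 (log2 fold change 3.89 ± 0.49, edgeR adjusted p = 7.16e-05) and was not called at GD124 against GD100 (log2 fold change 0.71 ± 0.49, edgeR adjusted p = 0.279), although a fit of those 2 stages alone called it (edgeR adjusted p = 0.0272). At GD144 it was 24.3 times the GD100 level (log2 fold change 4.60 ± 0.56, edgeR adjusted p = 8.75e-06). The late change exceeded the early one by log2 3.17 ± 0.84 (edgeR adjusted p = 0.0398), a difference that lost its call when any of GD100 replicates 2 and 3, GD124 replicates 1 to 5 or GD144 replicate 6 was left out (adjusted p 0.0586 to 0.0967).

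CDO1, cysteine dioxygenase, had 58.3, 40.1, 54 and 90.3 CPM at GD100, 118, 152, 129.6, 131 and 126 CPM at GD124, and between 228 and 451 CPM (median 251) at GD144. Its stages did not overlap, and it rose by log2 1.11 ± 0.24 at GD124 against GD100 and 1.19 ± 0.22 at GD144 against GD124 (edgeR adjusted p = 0.00289 and 0.000842), calls that held under each alternative run. CTH, cystathionine gamma-lyase, had 49, 15, 18.6 and 37.7 CPM at GD100, 44.9, 32.6, 33.4, 64.5 and 34.7 CPM at GD124, and between 34.3 and 239 CPM (median 126) at GD144. The GD144 libraries were spread over 6.98-fold, replicates 1 and 2 at GD100 and GD124 levels and replicates 3 to 6 above them. CTH rose at GD144 against GD124 (log2 fold change 1.56 ± 0.47, edgeR adjusted p = 0.0227) and at GD144 against GD100 (log2 fold change 2.04 ± 0.52, edgeR adjusted p = 0.00393), and the late call was lost without GD124 replicate 2 or 5 (adjusted p = 0.0543 and 0.0576).

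BHMT, which remethylates homocysteine with betaine, averaged 86.1 ± 47.7, 200.4 ± 17.6 and 272 ± 45.2 CPM at GD100, GD124 and GD144 (SD, n = 4, 5 and 6), with all GD124 libraries above all GD100 libraries. BHMT rose at GD124 against GD100 (log2 fold change 1.22 ± 0.26, edgeR adjusted p = 0.00236) and was not called at GD144 against GD124 (edgeR adjusted p = 0.168, or 0.0174 without GD100 replicate 4). CBS, cystathionine beta-synthase, averaged 82.8 ± 19.4, 110.3 ± 12.7 and 158 ± 17.3 CPM at GD100, GD124 and GD144, and rose at GD144 against GD124 (log2 fold change 0.52 ± 0.14, edgeR adjusted p = 0.0115). Its early difference stood just above the threshold (edgeR adjusted p = 0.0504, and 0.0107 without GD100 replicate 4). AHCY, which hydrolyses adenosylhomocysteine, averaged 426 ± 142, 525 ± 146 and 884 ± 338 CPM at GD100, GD124 and GD144. AHCY was called at GD144 against GD124 at the threshold itself (log2 fold change 0.75 ± 0.27, edgeR adjusted p = 0.05 after rounding), a call lost when any of GD124 replicates 1, 2, 4 and 5 or GD144 replicates 4 and 5 was left out (adjusted p 0.0798 to 0.128). Its counts were fractional in all 15 libraries, and whether copies of the gene share its reads was not tested. Of the 7, AHCY and CTH were no longer called at GD144 against GD100 with replicate 1 alone for GD100.

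Serine and glycine breakdown had the highest median change of the 8 groups, a log2 fold change of 2.82 at GD144 against GD100. Of its 8 genes, 6 were called higher there, against 27.1% of all genes tested. SDS and SDSL, serine dehydratase and its relative, deaminate serine to pyruvate and lie next to each other among the protein-coding genes of the sheep assembly ARS-UI_Ramb_v3.0. SDS had 3.25, 1.47, 1.75 and 2.07 CPM at GD100, 2.97, 4.43, 2.15, 1.99 and 3.54 CPM at GD124, and between 10.9 and 422 CPM (median 61.5) at GD144. GD100 and GD124 overlapped at a few CPM, and all GD144 libraries lay above them, replicates 1 and 2 lowest (10.9 and 13.6 CPM) and replicates 4 and 6 highest (422 and 322 CPM), a span of 38.7-fold within the stage. SDS rose at GD144 against GD124 (log2 fold change 5.62 ± 0.98, edgeR adjusted p = 0.000805) and was not called at GD124 against GD100 (log2 fold change 0.49 ± 0.94, edgeR adjusted p = 0.72), and the difference between the 2 changes was not called either (log2 5.14 ± 1.66, edgeR adjusted p = 0.0839), although DESeq2 called it (adjusted p = 0.0059), as did edgeR without GD144 replicate 1 (adjusted p = 0.0421). Without GD144 replicate 4 the late change was log2 5.00 in place of 5.62.

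SDSL had 0.569, 0.244, 0.364 and 0.352 CPM at GD100, 1.77, 0.828, 1.11, 2.81 and 1.07 CPM at GD124, and between 3.05 and 72.7 CPM (median 16.5) at GD144. Each GD124 library lay above each GD100 library and each GD144 library above those, with replicates 4 and 6 again the highest of GD144. SDSL rose at GD144 against GD124 (log2 fold change 4.21 ± 0.76, edgeR adjusted p = 0.00104), and its early difference, log2 1.97 ± 0.91, was not called (edgeR adjusted p = 0.109), but was under the threshold in a fit of those 2 stages alone and in DESeq2 (adjusted p = 0.00948 and 0.0363). Neither SDS nor SDSL was called at GD144 against GD100 with replicate 1 alone for GD100, although both were called at GD144 against GD124. Their changes at GD144 against GD100 were then log2 5.51 and 5.64, in place of 6.11 and 6.19 in the full fit.

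Glycine is split by the mitochondrial glycine cleavage system, in which the GLDC product (P protein) removes the carboxyl group and the AMT (T protein) and GCSH (H protein) products carry the rest forward. GLDC had 35.9, 13.9, 18.9 and 21.1 CPM at GD100, 59, 71.1, 60.3, 42.8 and 36.6 CPM at GD124, and between 94.1 and 357 CPM (median 238) at GD144. Its 3 stages did not overlap, GD144 replicate 1 being the lowest of its stage and replicate 4 the highest. GLDC rose in both intervals (log2 fold change 1.26 ± 0.36, edgeR adjusted p = 0.0131 at GD124 against GD100, and log2 fold change 2.09 ± 0.33, edgeR adjusted p = 0.00029 at GD144 against GD124). Its early call was lost with the replicate number as a block (edgeR adjusted p = 0.0516). With replicate 1 alone for GD100 its early change was smaller, log2 0.59 in place of 1.26. AMT averaged 82 ± 16, 98.7 ± 7.14 and 88.4 ± 10.5 CPM at GD100, GD124 and GD144 and GCSH 31.8 ± 15.9, 51.5 ± 17.3 and 40.0 ± 11.2 CPM at GD100, GD124 and GD144 (SD, n = 4, 5 and 6), and neither was called in any pair of stages (edgeR adjusted p = 0.516 and 0.386 at GD144 against GD100). GCSH counts were fractional in all 15 libraries, and without GD100 replicate 4, the highest of its stage, GCSH was called higher at GD124 and at GD144 against GD100 (edgeR adjusted p = 0.0108 and 0.0369). AMT was called higher at GD124 against GD100 without GD100 replicate 1 (edgeR adjusted p = 0.0366).

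The balance between these partners moved with GLDC. The log2 ratio of GLDC to AMT counts within a library ran from -2.22 to -1.51 at GD100, from -1.34 to -0.45 at GD124 and from 0.14 to 2.17 at GD144, so that no stage overlapped another. The ratio of GLDC to GCSH ran from -1.40 to 0.56, from -0.28 to 1.13 and from 1.86 to 3.31 at the same stages. As no transcript lengths were used, these ratios compare libraries and do not say which subunit had more transcripts. By contrast the ratios of PCCA to PCCB, MCCC1 to MCCC2, BCKDHA to BCKDHB and BCKDHA to DBT, subunits of 3 enzymes of branched-chain breakdown, overlapped between all pairs of stages. These ratios, like that of AMDHD1 to HAL, were chosen after the values were seen and were given no test.

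**Figure D3:**
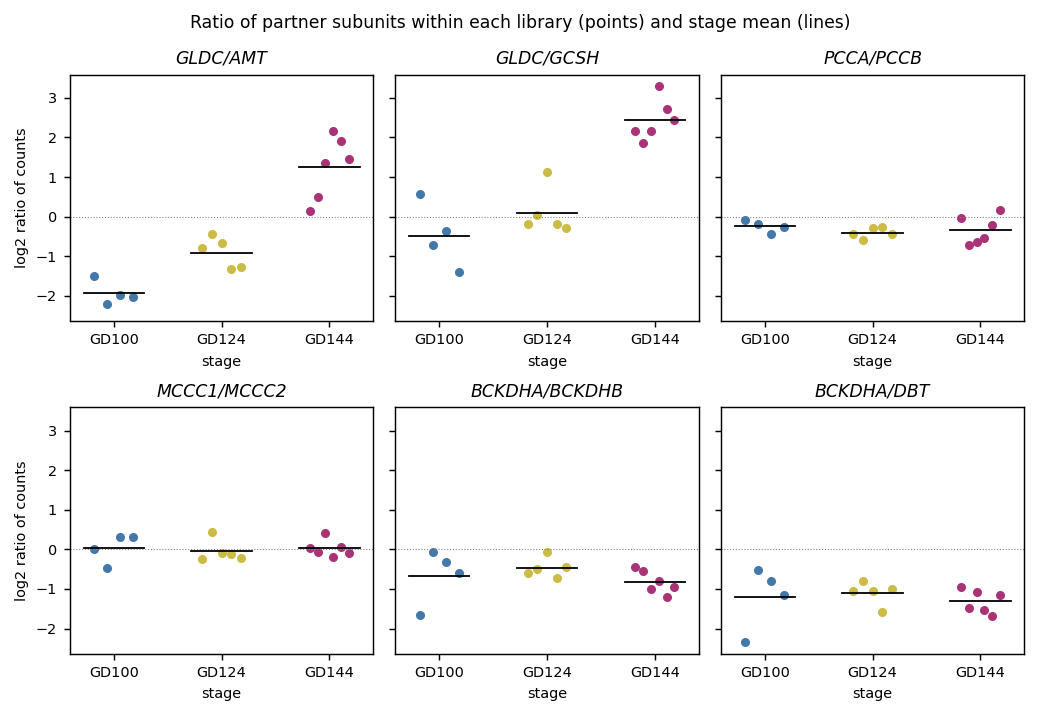
Log2 ratio of the counts of 2 subunits of the same enzyme complex within each library (points, 4 GD100, 5 GD124 and 6 GD144 libraries) with the stage mean as a line. GLDC over AMT separates the 3 stages, with GD144 libraries at 0.14 or above, while the 4 ratios of branched-chain subunits overlap between stages.

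SHMT1, the cytosolic enzyme that moves a carbon between serine and glycine, averaged 39.2 ± 19.3, 88.6 ± 33.3 and 251 ± 33.3 CPM at GD100, GD124 and GD144 (SD, n = 4, 5 and 6), with every GD144 library above those of both earlier stages. SHMT1 rose in both intervals (log2 fold change 1.18 ± 0.32, edgeR adjusted p = 0.0111 at GD124 against GD100, and log2 fold change 1.5 ± 0.29, edgeR adjusted p = 0.00131 at GD144 against GD124). Its early change was smaller with replicate 1 alone for GD100, log2 0.67 in place of 1.18. DMGDH and SARDH oxidise dimethylglycine and sarcosine, the methylated glycines that betaine use and GNMT leave behind. DMGDH averaged 21.4 ± 7.68, 70.8 ± 13.1 and 166 ± 37.8 CPM at GD100, GD124 and GD144, with no overlap between stages. It rose by log2 1.73 ± 0.23 at GD124 against GD100 and 1.23 ± 0.20 at GD144 against GD124 (edgeR adjusted p = 0.000171 and 0.000368). SARDH averaged 59.2 ± 14.5, 74.7 ± 9.88 and 134 ± 31.4 CPM at GD100, GD124 and GD144, and rose at GD144 against GD124 (log2 fold change 0.85 ± 0.18, edgeR adjusted p = 0.00243), where all GD144 libraries lay above all GD124 libraries. SHMT1, GLDC and DMGDH, but not SARDH, were still called at GD144 against GD100 with replicate 1 alone for GD100, the change of GLDC then being log2 2.68 in place of 3.35.

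**Figure D4:**
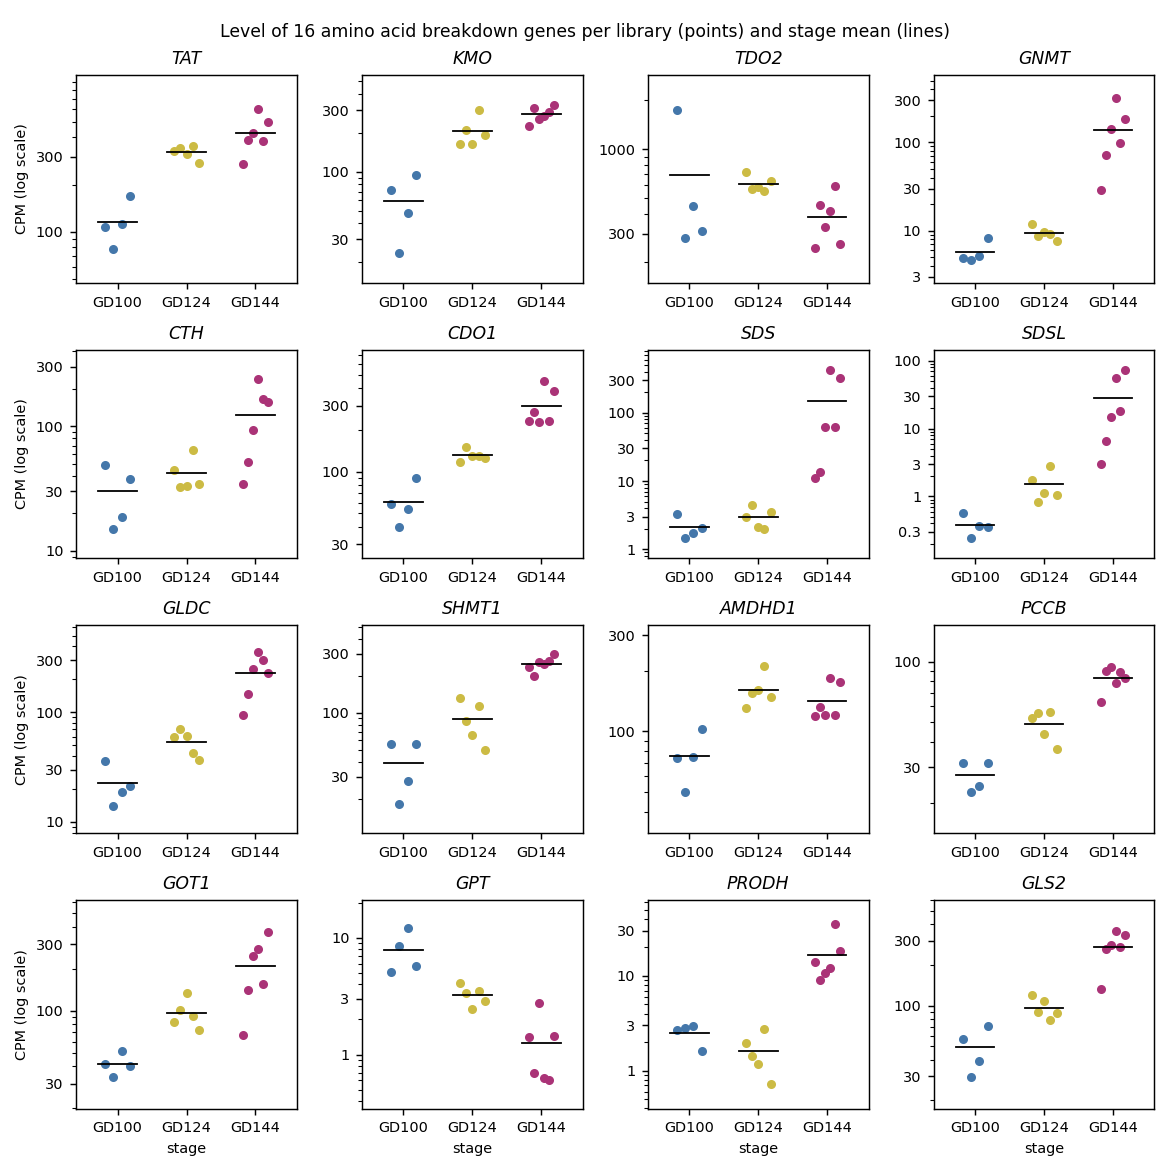
CPM of 16 of the genes on a log scale in each library (points) with the stage mean (line), for 4 GD100, 5 GD124 and 6 GD144 libraries. SDS, SDSL and GNMT are spread widely within GD144, TDO2 has 1 high library at GD100, and GPT falls at each later stage.

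Of the 10 branched-chain genes, 9 were higher at GD144 than at GD100, 6 at GD124 against GD100 and 4 at GD144 against GD124. Over all genes tested, the shares were 27.1%, 16.6% and 12.1%. Most changes of the 10 genes were near 2-fold (median log2 fold change 1.20 at GD144 against GD100). PCCB and PCCA make up propionyl-CoA carboxylase, which takes the propionyl-CoA left by valine and isoleucine towards the citric acid cycle. PCCB had 31.3, 22.7, 24.3 and 31.6 CPM at GD100, 52.7, 55.7, 43.6, 56.5 and 37.1 CPM at GD124, and between 63.2 and 94.6 CPM (median 85.9) at GD144. The 3 stages did not overlap, and it rose by log2 0.84 ± 0.16 and 0.75 ± 0.14 in the 2 intervals (edgeR adjusted p = 0.00123 and 0.00106). PCCA had 29.3, 19.8, 17.8 and 26.4 CPM at GD100, 38.8, 36.9, 35.7, 46.8 and 27.1 CPM at GD124, and between 53.9 and 93.2 CPM (median 60.9) at GD144. GD124 replicate 5 fell inside the GD100 range, and all GD144 libraries lay above the rest. PCCA rose at GD144 against GD124 (log2 fold change 0.84 ± 0.18, edgeR adjusted p = 0.0024) and at GD124 against GD100 (log2 fold change 0.67 ± 0.20, edgeR adjusted p = 0.017), the early call being lost without GD100 replicate 2 or 3 (adjusted p = 0.0624 and 0.0733).

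BCAT2, the mitochondrial aminotransferase at the head of the pathway, had 4.36, 2.72, 2.77 and 3.05 CPM at GD100, 2.81, 2.2, 3.79, 4.93 and 2.22 CPM at GD124, and between 2.82 and 22.9 CPM (median 4.85) at GD144. GD100 and GD124 shared a low range, 4 GD144 libraries lay in or close to it, and GD144 replicates 4 and 6 stood at 14.3 and 22.9 CPM. BCAT2 was called at GD144 against GD124 (log2 fold change 1.47 ± 0.50, edgeR adjusted p = 0.038) and at GD144 against GD100 (log2 fold change 1.46 ± 0.54, edgeR adjusted p = 0.0313). The late call was lost when any of GD124 replicates 1, 2, 3 and 5 or GD144 replicates 4 and 6 was left out (adjusted p 0.0547 to 0.104). The call against GD100 was lost when any of GD100 replicates 2 to 4 or GD144 replicates 4 and 6 was left out (adjusted p 0.06 to 0.0836).

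The remaining branched-chain genes code for the ketoacid dehydrogenase and the steps after it. BCKDHA, BCKDHB and DBT, its E1 alpha, E1 beta and E2 subunits, rose at GD144 against GD100 by log2 1.02 ± 0.20, 1.23 ± 0.20 and 1.17 ± 0.22 (edgeR adjusted p = 0.000388, 7.17e-05 and 0.00034). BCKDHA had its lowest value, 9.03 CPM, in GD100 replicate 1, against 16.7 to 23.2 CPM in the other GD100 libraries, and with that library as the only one of GD100 its fold change at GD144 was log2 1.93. BCKDHA averaged 16.9 ± 5.91, 27.2 ± 4.75 and 34.1 ± 1.83 CPM at GD100, GD124 and GD144 and BCKDHB 26.1 ± 7.59, 37.5 ± 6.64 and 61.3 ± 11.7 CPM at GD100, GD124 and GD144 (SD, n = 4, 5 and 6). BCKDHB rose at GD144 against GD124 (log2 fold change 0.71 ± 0.18, edgeR adjusted p = 0.00826), and also at GD124 against GD100 without GD100 replicate 4 (edgeR adjusted p = 0.0163). DBT averaged 38.5 ± 12.5, 58.7 ± 12.3 and 86.3 ± 17.9 CPM at GD100, GD124 and GD144 (SD, n = 4, 5 and 6), and its call at GD124 against GD100 (log2 fold change 0.61 ± 0.23, edgeR adjusted p = 0.0473) was lost under other scalings and when any of GD100 replicates 2 and 3, GD124 replicates 1, 3 and 4 or GD144 replicates 2, 3, 4 and 6 was left out (adjusted p 0.0518 to 0.161). Its difference at GD144 against GD124 lay as near the threshold on the other side (edgeR adjusted p = 0.0524). MCCC1 and MCCC2, which form the leucine-pathway methylcrotonyl-CoA carboxylase, rose at GD144 against GD100 by 0.99 ± 0.20 and 1.03 ± 0.19 (edgeR adjusted p = 0.000592 and 0.000234). MCCC1 averaged 13.9 ± 5.13, 19.6 ± 3.59 and 27.6 ± 2.41 CPM at GD100, GD124 and GD144, and MCCC2 13.3 ± 4.55, 20.2 ± 3.14 and 27.2 ± 3.9 CPM at GD100, GD124 and GD144. HIBCH, a hydrolase of valine breakdown, averaged 22.9 ± 6.68, 46.8 ± 7.92 and 57.8 ± 12.5 CPM at GD100, GD124 and GD144, and rose at GD124 against GD100 (log2 fold change 1.03 ± 0.21, edgeR adjusted p = 0.00187) and was not called at GD144 against GD124 (edgeR adjusted p = 0.245).

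IVD, the isovaleryl-CoA dehydrogenase of leucine breakdown, averaged 169 ± 35.9, 212 ± 54.8 and 209.7 ± 32 CPM at GD100, GD124 and GD144, with overlap between all stages and no call (log2 fold change 0.31 ± 0.19, edgeR adjusted p = 0.185 at GD144 against GD100). MCCC2 was called at GD124 against GD100 (log2 fold change 0.61 ± 0.19, edgeR adjusted p = 0.024), a call lost when any of GD100 replicates 2 to 4 or GD124 replicates 1 and 4 was left out (adjusted p 0.0507 to 0.0952). MCCC1 was not called at GD144 against GD124 (log2 fold change 0.49 ± 0.18, edgeR adjusted p = 0.0597) although all 6 GD144 libraries lay above all 5 GD124 libraries, and it was called when any of GD100 replicates 1 to 4, GD124 replicate 2 or GD144 replicate 1 was left out. BCAT2, MCCC1 and MCCC2 lost their calls at GD144 against GD100 with replicate 1 alone for GD100, and 6 of the 10 genes kept them.

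Of the 4 genes of histidine breakdown, 2 rose at GD144 against GD100, where 27.1% of all genes tested did. At GD124 against GD100 1 rose (25.0%), near the 16.6% of all genes tested for so small a group. At GD144 against GD124 edgeR called 0 of 4, with 0 at an unadjusted p under 0.05, and DESeq2 also called 0. There edgeR called 27.5% of all genes tested, and 4 genes are too few to set 0 apart from that share. HAL, which removes ammonia from histidine, had 16.3, 18.3, 40.3 and 38.7 CPM at GD100, 60.7, 56, 62.2, 40.6 and 51.3 CPM at GD124, and between 41.5 and 173 CPM (median 56) at GD144. All later libraries lay above all GD100 libraries, and GD144 replicate 4, at 173 CPM, lay far above the rest of its stage. HAL rose at GD144 against GD100 (log2 fold change 1.38 ± 0.40, edgeR adjusted p = 0.00873), while its difference at GD124 against GD100 was not called (log2 fold change 0.93 ± 0.41, edgeR adjusted p = 0.0899). That difference was called without GD144 replicate 4 (edgeR adjusted p = 0.0206), and with replicate 1 alone for GD100 the change over the whole span was log2 2.19. AMDHD1, the imidazolonepropionase of the third step, had 74.2, 50.2, 75 and 103 CPM at GD100, 130.3, 154, 160.2, 209.8 and 148 CPM at GD124, and between 119 and 183 CPM (median 127) at GD144. GD124 and GD144 overlapped, and both lay above GD100. AMDHD1 rose at GD124 against GD100 (log2 fold change 1.09 ± 0.21, edgeR adjusted p = 0.00123), with no call at GD144 against GD124 (log2 fold change -0.17 ± 0.18, edgeR adjusted p = 0.52). The late change was smaller than the early one by a called amount (difference -1.26 ± 0.33, edgeR adjusted p = 0.0342), a call lost when any of GD100 replicates 2 and 3, GD124 replicates 2 to 5 or GD144 replicates 1 and 5 was left out (adjusted p 0.052 to 0.107).

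AMDHD1 and HAL are neighbours among the protein-coding genes of ARS-UI_Ramb_v3.0, and the log2 ratio of their counts overlapped between all pairs of stages. UROC1, urocanate hydratase between those steps, averaged 232 ± 61.6, 277 ± 44 and 273 ± 24 CPM at GD100, GD124 and GD144 (SD, n = 4, 5 and 6). FTCD, which passes the formimino group to folate at the end of the pathway, averaged 152 ± 13.2, 174 ± 31.2 and 174 ± 39.8 CPM at GD100, GD124 and GD144. Neither was called in any pair of stages (edgeR adjusted p = 0.261 and 0.374 at GD144 against GD100).

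Among the aminotransferases GPT went against the rest. GPT, the alanine aminotransferase usually found in the cytosol, had 5.12, 8.45, 12.2 and 5.75 CPM at GD100, 4.08, 3.39, 2.45, 3.49 and 2.9 CPM at GD124, and between 0.601 and 2.79 CPM (median 1.05) at GD144. Each GD124 library lay below each GD100 library, and all GD144 libraries lay below GD100, with GD144 replicate 3 inside the GD124 range. GPT fell at GD124 against GD100 (log2 fold change -1.27 ± 0.40, edgeR adjusted p = 0.0221), at GD144 against GD124 (log2 fold change -1.36 ± 0.37, edgeR adjusted p = 0.012) and at GD144 against GD100 (log2 fold change -2.63 ± 0.39, edgeR adjusted p = 3.07e-05). The early fall was not called without GD100 replicate 3 or GD124 replicate 3 (adjusted p = 0.0941 and 0.0515), nor with replicate 1 alone for GD100, which also brought the fall over the whole span to log2 -2.0.

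GOT1, the cytosolic aspartate aminotransferase, had 41.5, 33.7, 51.2 and 40.2 CPM at GD100, 83.7, 102, 135, 91.3 and 72.5 CPM at GD124, and between 67.5 and 369.6 CPM (median 201) at GD144. Every GD124 library lay above GD100, and GD144 was spread over 5.48-fold, with replicate 1 below all GD124 libraries. GOT1 rose in both intervals (log2 fold change 1.22 ± 0.36, edgeR adjusted p = 0.0179 at GD124 against GD100, and log2 fold change 1.12 ± 0.33, edgeR adjusted p = 0.0182 at GD144 against GD124), the early call being lost without GD100 replicate 2 (adjusted p = 0.0641) and the late one without GD124 replicate 5 (adjusted p = 0.051). GOT2, its mitochondrial partner, had 184, 127, 137 and 175 CPM at GD100, 226, 181, 189, 189 and 142 CPM at GD124, and between 234 and 412 CPM (median 306) at GD144. GD100 and GD124 overlapped and GD144 lay above both. GOT2 rose at GD144 against GD124 (log2 fold change 0.76 ± 0.17, edgeR adjusted p = 0.00295). AGXT, the aminotransferase that uses alanine to remove glyoxylate, averaged 86.2 ± 30.6, 105 ± 11.4 and 154 ± 34.4 CPM at GD100, GD124 and GD144 (SD, n = 4, 5 and 6), and rose at GD144 against GD100 (log2 fold change 0.83 ± 0.21, edgeR adjusted p = 0.00335). Its call at GD144 against GD124 (log2 fold change 0.54 ± 0.20, edgeR adjusted p = 0.0499) was lost when any GD124 library, or any GD144 library but replicate 4, was left out (adjusted p 0.0592 to 0.119).

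The last group holds enzymes of proline, ornithine, lysine and glutamine, of which 3 of 5 rose at GD144 against GD100 (27.1% of all genes tested did). PRODH, the mitochondrial enzyme that opens proline breakdown, had 2.68, 2.79, 2.95 and 1.6 CPM at GD100, 1.96, 1.44, 1.18, 2.74 and 0.726 CPM at GD124, and between 9.0 and 35 CPM (median 13.1) at GD144. GD100 and GD124 overlapped at the lowest level, and all GD144 libraries lay above them, GD144 replicate 5 highest at 35 CPM. PRODH rose at GD144 against GD124 (log2 fold change 3.35 ± 0.40, edgeR adjusted p = 3.15e-05) with no call at GD124 against GD100 (log2 fold change -0.63 ± 0.41, edgeR adjusted p = 0.246). The 2 changes differed by log2 3.98 ± 0.72 (edgeR adjusted p = 0.00794), the only one of the 3 called interval differences that held under each alternative run.

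GLS2, the liver-type glutaminase that releases ammonia from glutamine, had 57.1, 29.5, 38.7 and 71.2 CPM at GD100, 121, 89.1, 108, 78.1 and 87.6 CPM at GD124, and between 132 and 355 CPM (median 273) at GD144. Its 3 stages did not overlap, GD144 replicate 1 lying closest to GD124. GLS2 rose in both intervals (log2 fold change 0.98 ± 0.28, edgeR adjusted p = 0.0127 at GD124 against GD100, and log2 fold change 1.49 ± 0.25, edgeR adjusted p = 0.000422 at GD144 against GD124). Its early change was smaller with replicate 1 alone for GD100, log2 0.76 in place of 0.98. AASS, which carries out the opening steps of lysine breakdown, had 68.9, 28, 35.4 and 59.5 CPM at GD100, 80.1, 89.7, 74.1, 99.2 and 74 CPM at GD124, and between 69.7 and 144 CPM (median 96.5) at GD144. Both later stages lay above GD100 and overlapped each other. AASS rose at GD124 against GD100 (log2 fold change 0.80 ± 0.25, edgeR adjusted p = 0.02), a call lost without GD100 replicate 2 or 3 (adjusted p = 0.0673 and 0.0761). ALDH4A1, the dehydrogenase that follows PRODH, averaged 316 ± 78.9, 253 ± 42.1 and 305 ± 44.3 CPM at GD100, GD124 and GD144 (SD, n = 4, 5 and 6), and OAT, ornithine aminotransferase, 56.8 ± 15.5, 90.3 ± 31.4 and 64.8 ± 27 CPM at GD100, GD124 and GD144. Neither was called in any pair of stages (edgeR adjusted p = 0.819 and 0.614 at GD144 against GD100), and OAT counts were fractional in 10 libraries. PRODH and GLS2, but not AASS, were still called at GD144 against GD100 with replicate 1 alone for GD100.

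The spread between libraries was widest at the last stage for a subset of the genes. The highest library of a stage was a median 2.15 times the lowest at GD100, 1.58 times at GD124 and 1.93 times at GD144. At GD144 it was over 4 times for 8 genes (GNMT, CTH, SDS, SDSL, BCAT2, HAL, GOT1 and GPT), with 38.7-fold for SDS, against none at GD124 and 2 (TDO2 and KMO) at GD100. Such a ratio tends to grow with the number of libraries, here 4, 5 and 6, so the stages are not compared on equal terms. GD144 replicate 1 was the lowest of its stage for 28 of the 46 genes and the highest for none. GD144 replicates 4, 6 and 5 were the highest for 15, 11 and 10 genes. At GD100, replicate 2 was the lowest for 36 genes, and its hepatocyte marker sum (49859 CPM) was the lowest and its red-cell marker sum (8931 CPM) the highest of its stage. GD144 replicate 1 also had the lowest hepatocyte marker sum of its stage (145500 CPM). These counts of genes were not set against the share over all genes tested, and the part of cell composition in this spread was not tested.

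Of 55 further genes of amino acid breakdown, 52 were tested, KYAT1, AADAT and TDH not being in the table. At GD144 against GD100, 40 rose (76.9%, against 27.1% of all genes tested) and 5 fell (median log2 fold change 0.97). At GD124 against GD100, 25 rose (48.1%, against 16.6%) and 1 fell (median 0.59), and at GD144 against GD124, 21 rose (40.4%, against 12.1%) and 4 fell (median 0.39). GPT2, the mitochondrial alanine aminotransferase, averaged 20.8 ± 4.41, 73.8 ± 28.6 and 250.4 ± 131 CPM at GD100, GD124 and GD144 (SD, n = 4, 5 and 6), and rose at GD144 against GD100 (log2 fold change 3.59 ± 0.46, edgeR adjusted p = 9.92e-06), opposite to GPT. The log2 ratio of GPT2 to GPT counts, looked at after the values were seen, ran from 0.59 to 2.34 at GD100, from 3.57 to 5.59 at GD124 and from 5.59 to 9.18 at GD144. ACADSB, a dehydrogenase of isoleucine breakdown, averaged 7.29 ± 3.28, 14.7 ± 4.67 and 84.1 ± 37.3 CPM at GD100, GD124 and GD144, and rose at GD144 against GD100 (log2 fold change 3.53 ± 0.44, edgeR adjusted p = 8.92e-06). DAO, which oxidises D-amino acids, averaged 0.144 ± 0.106, 1.5 ± 1.3 and 5.28 ± 4.2 CPM at GD100, GD124 and GD144, with 1 to 7 counts per GD100 library, and rose at GD144 against GD100 (log2 fold change 5.17 ± 0.92, edgeR adjusted p = 0.000202). SRR, serine racemase, averaged 205 ± 87.5, 268 ± 78.2 and 22 ± 12.3 CPM at GD100, GD124 and GD144, and fell at GD144 against GD124 (log2 fold change -3.61 ± 0.40, edgeR adjusted p = 2.56e-05), every GD144 library lying below every library of the earlier stages. With replicate 1 alone for GD100, the changes of ACADSB and DAO at GD144 against GD100 were log2 5.12 and 7.22. That library held the lowest GD100 count of both genes, 77 for ACADSB and 1 for DAO, so this change of DAO rests on 1 count.

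Counting limits a few of these values. By ARS-UI_Ramb_v3.0, MAT1A, BHMT, SHMT1, SARDH, BCAT2, BCKDHA, BCKDHB, MCCC2, HIBCH, PCCA, AASS and GLS2 (12 genes) overlap another gene, and as the use of strand in counting is not given in the sources used here, reads of the overlapping gene cannot be told apart from theirs. Fractional counts touched 7 of the 46 genes and were absent from the other 39.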

How the data were processed

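The table holds expected counts per gene that the authors deposited, made by paired-end sequencing of poly(A) RNA per the labels' protocols, with DRAGEN named in the submitters' processing notes. Nothing in the labels or the file names the genome build, annotation, strand setting or counter. Fractional counts (6.55% of values, tolerance 0.001) were rounded to whole numbers, which moved no library total by more than 27.9. Genes were kept by edgeR's filterByExpr (16977 of 31411) and fitted in 1 model over the 15 libraries (edgeR 4.0.16 in R 4.3.3, TMM scaling, robust quasi-likelihood F-test), with Benjamini-Hochberg adjustment over all genes tested and a threshold of 0.05. Each SE is the log2 fold change divided by the square root of F. The biological coefficient of variation was 34%. CPM values use TMM-scaled library sizes. In 31 pairs of libraries of 1 stage none agreed within sampling noise (lowest chi-square per degree of freedom 43.7). Group, stage order and replicate numbers come from the titles; all 15 columns were matched through the sample descriptions. The script was tested on simulated data. Alternatives were other scalings, filters, DESeq2 1.42.0, 2-stage fits, a replicate block, GD100 replicate 1 alone and leaving out each library.

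The genes and lists were chosen with earlier results of these data known. Some genes are given library by library at GD100 and GD124, and as a range and median at GD144. These were, per amino acid group, up to 3 called genes with the largest change at GD144 against GD100. Any gene called lower, and the 5 with the smallest p for the interval difference, were also included. TDO2 and MAT1A were added after their values were seen. Stage means are given for the rest. No coordinates are given, since the build is unknown; names, overlaps and neighbours come from RefSeq's ARS-UI_Ramb_v3.0, in which all 46 symbols matched.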

Additional observations from a re-analysis of the deposited data

Results flagged for a closer look

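In 138 groups (46 genes in 3 stages) the highest and lowest library were set against the spread of the others, and 6 values stood apart; chance alone would give about 1 in 20 groups. TDO2 had 1743 CPM in GD100 replicate 1, against 282 to 447 CPM in the other 3 GD100 libraries. GNMT had 8.22 CPM in GD100 replicate 4, against 4.72 to 5.21 CPM in the others of its stage. GCSH had 55.7 CPM in the same library, against 22.9 to 24.3 CPM, and GD100 replicate 4 also carried the highest hepatocyte marker sum of its stage (141426 CPM, against 49859 to 65242 CPM). HPD had 1479.5 CPM in GD124 replicate 4, against 1174 to 1243 CPM in the other 4 libraries. HAL had 173 CPM in GD144 replicate 4, against 41.5 to 74.8 CPM in the other 5. PRODH had 35 CPM in GD144 replicate 5, against 9.0 to 18.2 CPM.

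For 3 genes the change over the late interval (20 days) differed from that over the early interval (24 days) in the edgeR test of that difference. It was larger by log2 3.98 for PRODH and 3.17 for GNMT, and for AMDHD1 the difference was -1.26.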

How the results depend on the processing

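The calls at GD144 against GD100 were the steadiest: 27 of the 38 called genes kept their call in all 24 alternatives. At GD144 against GD124 16 of 25 did, and at GD124 against GD100 6 of 21 (TAT, KMO, BHMT, CDO1, DMGDH and AMDHD1). Of the 3 called interval differences, which 2-stage fits cannot give, 1 kept its call in all the other alternatives. With replicate 1 alone for GD100, 9 of the 46 genes were called at GD124 against GD100 (21 in the full fit), 17 of the 52 further genes (26) and 3167 of all genes (5774). Leaving out 1 library, 14 to 26 of the 46 were called at GD124 against GD100, 18 to 29 at GD144 against GD124 and 37 to 39 at GD144 against GD100, and 1 to 6 interval differences. Among differences called in either fit, the only one that changed direction was TDO2 at GD124 against GD100, with log2 0.82 without GD100 replicate 1 (edgeR adjusted p = 0.0273), against -0.19 in the full fit and down to -0.46 without GD100 replicate 2; its uncalled difference at GD144 against GD100 also changed sign (0.15, against -0.86). Of the other leave-one-out tests of single genes, 1972 kept their side of the threshold, 63 lost it and 34 gained it; the cause was not tested.

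Scaling by total counts alone moved the median of all genes to -0.16 at GD124 against GD100 and 0.07 at GD144 against GD124. It changed the split of higher and lower genes to 1805 and 4055 at GD124 against GD100 (2825 and 2949 with TMM), and to 2520 and 2138 at GD144 against GD124 (2046 and 2617). Among the 46 genes 17 were then higher and 2 lower at GD124 against GD100. DESeq2 called 1816 interval differences among all genes, edgeR 1002.

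Deviations of same-numbered libraries from their stage means correlated at -0.15 to 0.14 over 13 pairs, 1 of them over 0.1. Such weak correlations show no pairing by replicate number but cannot exclude one. With the number as a replicate block, 19, 17 and 37 of the 46 genes were called at GD124 against GD100, GD144 against GD124 and GD144 against GD100, and 4544, 3306 and 8259 of all genes. Genes under 1 CPM, such as SDSL at GD100, rest on few counts.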

Other observations

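Of the genes that switch the branched-chain ketoacid dehydrogenase on and off, PPM1K rose and then fell, while BCKDK rose over the whole span. PPM1K was chosen after its values were seen, and its course was not tested against that of the subunits. PPM1K, the phosphatase that activates the complex, averaged 30.2 ± 5.69, 129.8 ± 30.9 and 55 ± 17.3 CPM at GD100, GD124 and GD144 (SD, n = 4, 5 and 6). It rose at GD124 against GD100 (log2 fold change 2.10 ± 0.26, edgeR adjusted p = 0.000126) and fell at GD144 against GD124 (log2 fold change -1.24 ± 0.22, edgeR adjusted p = 0.000651), with libraries of neighbouring stages not overlapping in either interval. The difference between the intervals was log2 -3.34 ± 0.39 (edgeR adjusted p = 0.000469). BCKDK, the kinase that inactivates the complex, averaged 11.6 ± 3.57, 15.6 ± 1.57 and 19.8 ± 1.24 CPM at GD100, GD124 and GD144, and rose at GD144 against GD100 (log2 fold change 0.77 ± 0.18, edgeR adjusted p = 0.00147).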
